A study of Ovis aries with 16 samples.

Results

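Integrins, cadherins and claudins hold lung cells to the matrix and to each other, and they were compared between peripheral lung of lambs with an aortopulmonary shunt and lung of control lambs. The genes were taken by symbol, as those that start with ITGA, ITGB, CDH, PCDH or CLDN, leaving out ITGAM, CDH5 and CLDN5. This rule was set with earlier results of these data known. The array measured 51 such genes among 9155, each represented by its brightest probe set, judged by the mean of the 16 arrays. By family they are 11 integrin alpha subunits, 8 genes of the integrin beta name group (7 beta subunits and the related ITGBL1), 12 cadherins, 3 protocadherins and 13 claudins. The other 4, ITGB1BP1, ITGB1BP2, ITGB3BP and CLDND1, share a prefix and are neither integrins nor claudins. One more probe set matches several protocadherin symbols and was not assigned to a gene.

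Integrins are receptors of an alpha and a beta chain that bind matrix proteins outside the cell and the actin cytoskeleton inside. Cadherins bind their own kind on the neighbouring cell and are anchored by catenins in adherens junctions. Claudins form the strands of tight junctions and set how readily ions and water pass between epithelial cells, which matters in the newborn lung as it clears fluid. Leukocyte integrins bind adhesion molecules of endothelium and let white cells leave the blood.

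All 16 lambs were 3 days old, and each array was taken as 1 lamb. In 8 lambs (shunt), an 8.0 mm wide and 2 mm long Gore-tex graft had been sewn between aorta and pulmonary artery of the fetus 9 ± 6 days before term, which sends extra blood through the lung after birth as some congenital heart defects do. The 8 control lambs came from sham surgery. Breed and sex are not given in the sources used here. Values are log2 levels after RMA, sheep RNA was read with bovine probe sets, and a difference is the level in shunt minus the level in control with the standard error of the limma fit.

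The surfactant genes SFTPB and SFTPC were at percentiles 98.1 and 99.4 of all genes by mean level, as lung tissue should show. Correlations of an array with the other 15 averaged 0.982 to 0.991, with control replicate 2 lowest. The median of an array was 7.15 ± 0.016 for controls and 7.13 ± 0.0091 for shunt lambs (SD, n = 8 each, two-sided exact permutation p = 0.000311). This shift may enter the differences below, and its part in each gene was not tested. Scan dates and hybridization batches are not given in the sources used here.

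No gene of the 51 passed an adjusted p of 0.05 over all genes by limma with Benjamini-Hochberg adjustment, where 0.0874% of all genes passed (0.0655% higher and 0.0218% lower in shunt). At an unadjusted p under 0.05, 6 genes were higher in shunt (11.8% of the 51, against 6.63% of all genes) and 6 were lower (11.8%, against 7.92%). Groups overlapped for all 51, and over all genes 0.0655% lay wholly higher and 0.0874% wholly lower in shunt. The higher ones were ITGAV, ITGB1, ITGA5, ITGA7, ITGB3 and CLDN16. The lower ones were CDHR5, CDH1, ITGA3, CLDN18, CLDN3 and CLDN19, all of the epithelial class. The count of 6 higher became 3 when control replicate 7 was left out, and also when shunt replicate 4 or 8 was. Over all genes 607, 534 and 541 were higher in these fits, against 607 with all arrays. The count of 6 lower became 3 without shunt replicate 7 or 8. Over all genes 655 and 640 were lower there, against 725 with all arrays. With each array centred on its median, 6 of the 51 were higher and 3 lower, and over all genes 849 were higher and 448 lower, against 607 and 725 without centring. All 8 shunt lambs lay on the upper side of the control mean for 3 genes (5.37% of all genes did) and on its lower side for 4 (7.74%), shares near the background.

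**Figure D1:**
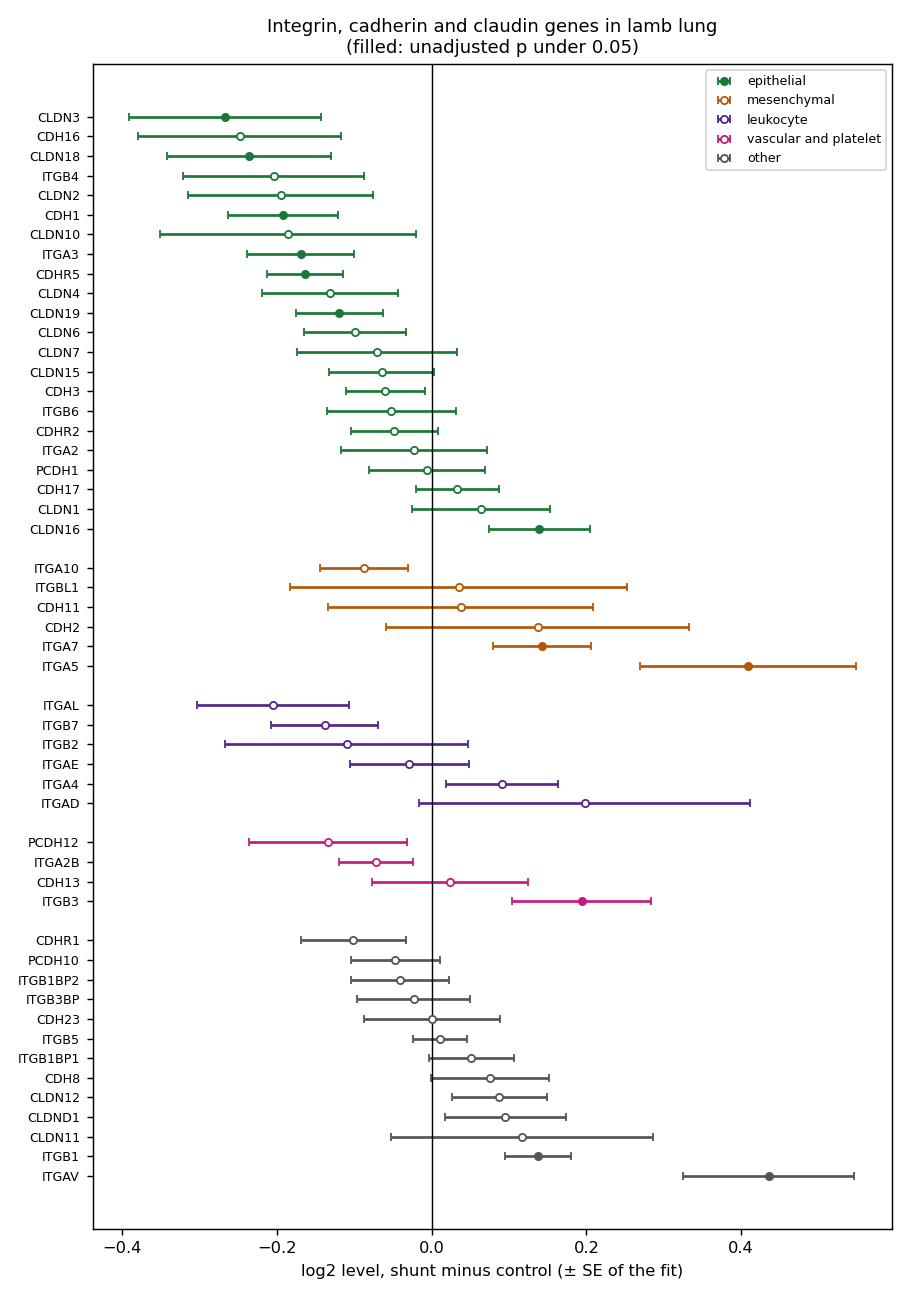
Difference in log2 level (horizontal axis, shunt minus control, ± SE of the limma fit) for each of the 51 genes, by class, with filled points at an unadjusted p under 0.05. Of the 22 epithelial genes 19 lie left of 0 (55.1% of all genes do), and ITGAV and ITGA5 lie farthest right, at 0.44 and 0.41.

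Among receptors for the RGD motif of fibronectin and vitronectin, the alpha chain ITGAV differed most of all 51 genes. ITGAV pairs with several beta chains, and some of these receptors also release latent TGF-beta. Its level was 8.68 at the lowest, 8.94 at the median and 9.11 at the highest in control, and 8.89, 9.35 and 9.85 in shunt. All 8 shunt lambs lay above the control mean and 6 above the highest control, while shunt replicates 1 and 7, at 8.89 and 8.96, lay among the controls. The difference was 0.44 ± 0.11, or 1.35-fold, and missed the threshold (limma adjusted p = 0.127). Without shunt replicate 1 it was 0.50 (limma adjusted p = 0.0403). This was the 1 fit of the 16 with an array left out in which any of the 51 genes passed. In that fit 64 of all 9155 genes passed, the most of those 16 fits, against 8 with all arrays. A dimmer ITGAV probe set differed by 0.26 ± 0.080 (adjusted p = 0.218 over probe sets), with controls from 7.92 to 8.28 and shunt lambs from 8.05 to 8.65.

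ITGB1, the beta chain shared by most matrix receptors, was 12.91, 13.03 and 13.16 (lowest, median and highest) in control and 13.09, 13.15 and 13.22 in shunt. All 8 shunt lambs lay above the control mean and 4 above the highest control. The difference was small, 0.14 ± 0.043 (limma adjusted p = 0.207). ITGA5, the alpha chain of the main fibronectin receptor, was 7.85, 8.46 and 8.70 in control and 8.38, 8.80 and 9.10 in shunt. It exceeded the mean of the controls in 8 of 8 shunt lambs and the highest control in 5, and differed by 0.41 ± 0.14 (limma adjusted p = 0.232). Control replicates 1 and 2, at 7.85 and 7.96, were the lowest of all lambs. Its other probe sets, both dimmer, differed by -0.07 and -0.06, and with the mean of all ITGA5 probe sets the difference was 0.10.

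For ITGB3 and ITGB5, beta chains that pair with ITGAV, the difference depended on the probe set. ITGB3, known from platelets and angiogenic vessels, was 7.53, 7.71 and 8.00 in control and 7.67, 7.91 and 8.18 in shunt. It differed by 0.19 ± 0.090 (limma adjusted p = 0.334), with 3 shunt lambs above the highest control. Of its other probe sets, 1 was higher (0.11) and 2 were lower (-0.14 and -0.17), so the sign of ITGB3 depended on the probe set. ITGB5, a vitronectin receptor chain, was within 13.49 to 13.58 in all 16 lambs with its brightest probe set and differed by 0.01 ± 0.034. A dimmer ITGB5 probe set ran from 8.59 to 8.91 in control and from 8.68 to 9.24 in shunt, a difference of 0.28 ± 0.077 (adjusted p = 0.192 over probe sets). ITGB6, the epithelial partner of ITGAV with 1 probe set, differed by -0.05 ± 0.084. Across lambs, with group means subtracted, ITGAV and ITGB6 had Pearson's r = 0.24 (permutation p = 0.381, n = 16).

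**Figure D2:**
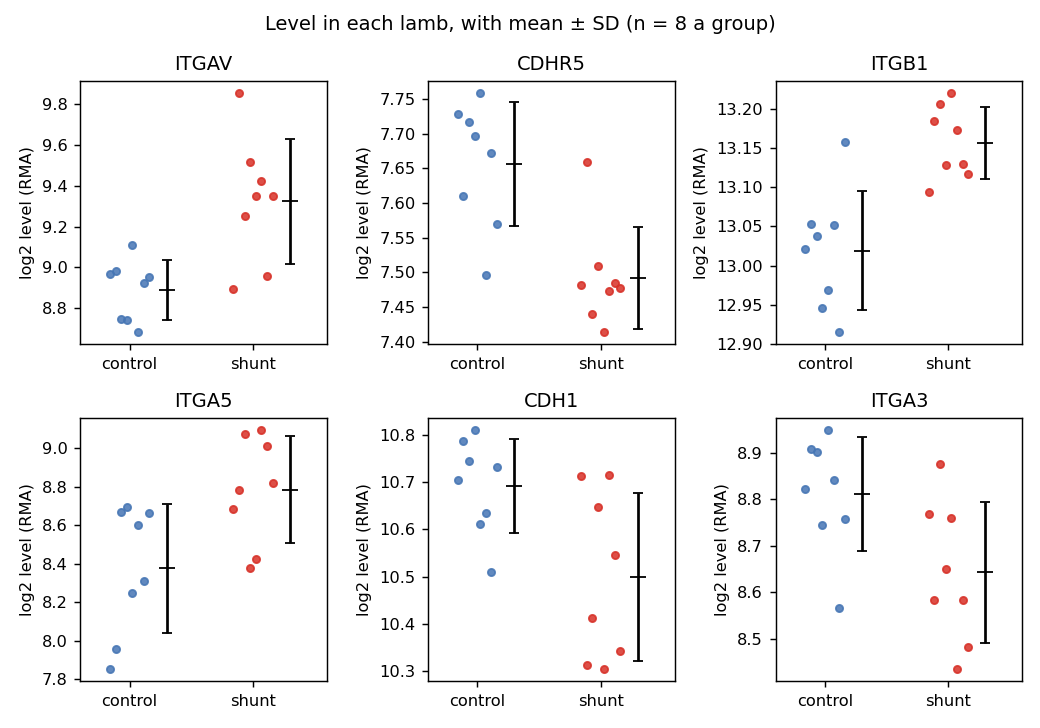
Log2 level (vertical axes, which do not start at 0) in each lamb for the 6 of the 51 genes with the smallest p, with mean ± SD of each group (n = 8). Shunt lambs lie higher for ITGAV, ITGB1 and ITGA5 and lower for CDHR5, CDH1 and ITGA3, and both groups overlap in each panel.

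Laminin and collagen receptors showed both signs. ITGA7, a laminin receptor of muscle, was 9.18, 9.40 and 9.54 in control and 9.35, 9.53 and 9.75 in shunt, with 4 shunt lambs above the highest control. The difference was 0.14 ± 0.063 (limma adjusted p = 0.316), while both dimmer ITGA7 probe sets were lower, by -0.15 and -0.08. ITGA3, the alpha chain of an epithelial laminin receptor, was 8.57, 8.83 and 8.95 in control and 8.43, 8.62 and 8.88 in shunt. It differed by -0.17 ± 0.069 (limma adjusted p = 0.283), with 7 of 8 shunt lambs under the mean of the controls. ITGB4, the hemidesmosome chain, differed by -0.20 ± 0.12, with 5 shunt lambs below the lowest control. The collagen receptor chains ITGA10 and ITGA2 differed by -0.09 ± 0.057 and -0.02 ± 0.095.

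The epithelial class, 22 genes whose best known site is epithelium, was mostly lower in shunt. Classes were assigned with earlier results of these data known. Of these 22, 19 differences were below 0 (86.4%, against 55.1% of all genes) and 3 above it (44.9% of all genes), and the median was -0.11 against -0.01 over all genes. At an unadjusted p under 0.05, 6 were lower (27.3%, against 7.92% of all genes) and 1 was higher (6.63% of all genes). The 6 became 3 without control replicate 8 or shunt replicate 7 and 2 without shunt replicate 8. Over all genes 891, 655 and 640 were lower at that p in these fits, against 725 with all arrays. With arrays centred on their medians, 17 of 22 were below 0, 3 with an unadjusted p under 0.05, and the median was -0.09. Over all genes 448 were lower at that p after centring, and the median was 0.0095.

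CDH1, or E-cadherin, the main cadherin of most epithelia, was 10.51, 10.72 and 10.81 in control and 10.31, 10.48 and 10.71 in shunt. It differed by -0.19 ± 0.072 (limma adjusted p = 0.253), with 4 shunt lambs below the lowest control and 2 above the control mean. A dimmer CDH1 probe set differed by -0.11 ± 0.14. CDHR5, a cadherin-like protein of microvilli, was 7.50, 7.69 and 7.76 in control and 7.41, 7.48 and 7.66 in shunt. It had the smallest p of the class, with a difference of -0.16 ± 0.049 (limma adjusted p = 0.201) and 6 shunt lambs below the lowest control. Shunt replicate 2, at 7.66, was the exception. CDH16 differed by -0.25 ± 0.13, with 8 of 8 shunt lambs under the mean of the controls but only 1 below the lowest control. Its medians were 7.31 in control and 7.17 in shunt, and the highest control was replicate 2 at 8.02. The other CDH16 probe set differed by -0.22 ± 0.074. CDH3, CDHR2, PCDH1 and CDH17 were between -0.06 and 0.03.

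Of 11 epithelial claudins, 9 were below 0 (55.1% of all genes), with a median of -0.12. CLDN18, the claudin best known from alveolar epithelium, was 8.57, 8.70 and 9.33 in control and 8.26, 8.62 and 8.75 in shunt. All 8 shunt lambs were under the mean of the controls, but the medians of the groups were close and 1 shunt lamb, replicate 5, was below every control. The difference was -0.24 ± 0.11 (limma adjusted p = 0.322). CLDN3, a barrier-forming claudin of alveolar type 2 cells and airways, was 9.80, 10.08 and 10.35 in control and 9.48, 9.72 and 10.34 in shunt. It differed by -0.27 ± 0.12 (limma adjusted p = 0.334), with 5 shunt lambs below the lowest control. CLDN4, whose gene is next to CLDN3 among the protein-coding genes of the sheep assembly, differed by -0.13 ± 0.088.

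The remaining claudins of epithelia had smaller or less certain differences. CLDN19 differed by -0.12 ± 0.056 and CLDN2 by -0.20 ± 0.12, and both belong to the dimmest 25% of the genes, where signal over background is unknown. A still dimmer CLDN2 probe set had the opposite sign, at 0.06 ± 0.074. CLDN10 was at -0.19 ± 0.17, CLDN6 at -0.10, CLDN7 at -0.07 and CLDN15 at -0.06. CLDN16 and CLDN1, which neighbour each other in the sheep assembly, were the claudins of this class above 0. CLDN16, an ion channel-forming claudin of the kidney, was dim and differed by 0.14 ± 0.065, and its other probe set also differed by 0.14. CLDN1 was at 0.06 ± 0.089, with another probe set at -0.09.

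**Figure D3:**
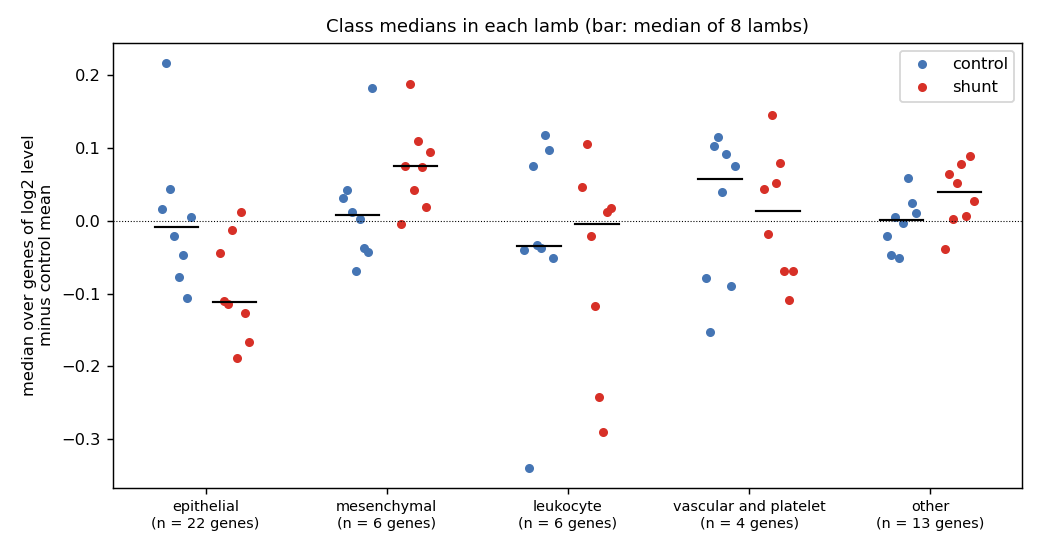
Median over the genes of each class of log2 level minus the control mean (vertical axis) in each lamb, with a bar at the median of 8 lambs. In the epithelial class 5 shunt lambs lie below the lowest control, and control replicate 2 stands apart at 0.22.

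Per lamb, the epithelial class median ran from -0.11 to 0.22 in control and from -0.19 to 0.01 in shunt, and 7 of 8 shunt lambs were below 0. Markers of epithelium were also lower in shunt, with none past the adjusted threshold by limma. Of 10 such markers 9 were measured, and all 9 were below 0 (55.1% of all genes). An unadjusted p under 0.05 was reached by 5 of them (7.92% of all genes lower), led by KRT19 at -0.44 ± 0.13 (limma adjusted p = 0.201). The mean marker level ran from 10.24 to 10.52 in control and from 9.92 to 10.42 in shunt, and no marker can be called absent on this scale. The part of the markers in the differences of the epithelial class was not tested. In whole lung, fewer cells of a type and less RNA per cell cannot be told apart.

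Other junction genes, on lists of partners, also gave no gene past the adjusted threshold by limma. Of 13 measured tight junction partners, 5 had an unadjusted p under 0.05 with a lower level and 1 with a higher one, where 7.92% and 6.63% of all genes did. Their median was -0.08. TJP3, a scaffold under claudins, differed by -0.42 ± 0.13 (limma adjusted p = 0.207). The scaffold MAGI3 was at -0.18 and the polarity protein PARD6A at -0.10, while the scaffold MPDZ was at 0.16. Of the 13, 4 are in the dimmest 25%, TJP3 and PARD6A among them. Desmosome genes had a median of -0.14 with 7 of 9 below 0 (55.1% of all genes), and 5 of the 9 are in the dimmest 25%. At an unadjusted p under 0.05, 1 was lower (7.92% of all genes), PERP at -0.19 ± 0.077. The adherens junction partners, with 5 of 15 measured, had a median of -0.01 and 0 genes at an unadjusted p under 0.05, with beta-catenin (CTNNB1) at 0.07 ± 0.038 and NECTIN2 at -0.15 ± 0.072.

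The mesenchymal class held 6 genes, 5 of them above 0 (44.9% of all genes), with a median of 0.09. Besides ITGA5 and ITGA7, its members are ITGA10 and 3 genes with wide spread among lambs. ITGA10, a collagen receptor chain of cartilage, was 7.48, 7.69 and 7.90 in control and 7.49, 7.64 and 7.74 in shunt, and was the 1 gene of the class below 0, at -0.09 ± 0.057 (limma adjusted p = 0.479). CDH2, or N-cadherin, was 7.09, 8.44 and 8.90 in control and 8.37, 8.44 and 9.05 in shunt, so the medians were nearly equal. Its difference of 0.14 ± 0.20 (limma adjusted p = 0.771) became -0.05 without control replicate 2, the lowest control. CDH11, the cadherin of fibroblasts, was 11.80, 12.50 and 12.79 in control and 11.82, 12.50 and 12.81 in shunt, a difference of 0.04 ± 0.17 (limma adjusted p = 0.940) whose sign turned under cyclic loess and without any 1 of several lambs of either group. ITGBL1 was 5.70, 5.87 and 7.66 in control and 5.77, 6.15 and 6.50 in shunt, with control replicate 2 far above the rest. The median of this class was 0.0045 with the most variable probe set of each gene and 0.17 with array weights.

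Smooth muscle markers were beside this class, with 6 of 8 above 0 (44.9% of all genes) and a median of 0.17. An unadjusted p under 0.05 with a higher level was reached by 4 (6.63% of all genes). MYH11 and TPM2, contractile genes, were at 0.33 ± 0.11 and 0.37 ± 0.12 (adjusted p = 0.207 for both by limma). TAGLN and ACTA2 were at 0.39 and 0.27, and MYLK and DES at 0.08 and 0.02. The 2 below 0 were CNN1 at -0.18 and LMOD1 at -0.00018. The mean level of the 8 markers ran from 10.17 to 10.63 in control and from 10.36 to 10.64 in shunt. Fibroblast markers had a median of 0.01, with 6 of 10 above 0 (44.9% of all genes) and 4 below. The matrix proteoglycan LUM was at 0.60 ± 0.24, the 1 marker with an unadjusted p under 0.05 (6.63% of all genes higher). COL1A1 was at 0.20 ± 0.13, while DCN, another matrix proteoglycan, was at -0.29 and TCF21 at -0.11. The mean level of the 10 ran from 10.03 to 11.05 in control and from 10.21 to 10.95 in shunt. The part of these markers in the differences of ITGA5 and ITGA7 was not tested.

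None of the 6 leukocyte integrin genes had an unadjusted p under 0.05 (6.63% of all genes higher and 7.92% lower). Of the 6, 4 were below 0 (55.1% of all genes). ITGAL, the alpha chain of LFA-1 on lymphocytes, was 8.29, 8.60 and 9.28 in control and 8.30, 8.46 and 8.61 in shunt. It differed by -0.21 ± 0.099 (limma adjusted p = 0.345), with 8 of 8 shunt lambs under the mean of the controls and all 8 within their range. Without control replicate 7, the highest lamb, the difference was -0.12. A dimmer ITGAL probe set differed by -0.06 ± 0.055. ITGB7, a chain of gut-homing lymphocytes, was 7.90, 8.06 and 8.21 in control and 7.73, 7.89 and 8.16 in shunt. It differed by -0.14 ± 0.069 (limma adjusted p = 0.363), with 5 shunt lambs below the lowest control.

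ITGB2, the beta chain common to leukocyte integrins, was 9.37, 10.10 and 10.80 in control and 9.59, 9.93 and 10.43 in shunt, a difference of -0.11 ± 0.16 (limma adjusted p = 0.771) that the spread among lambs covers. Without control replicate 7 it was -0.0072, and without control replicate 2 it was -0.21. ITGAD, an alpha chain of macrophages, was 8.12, 8.64 and 9.40 in control and 8.17, 8.89 and 9.56 in shunt. It differed by 0.20 ± 0.21 (limma adjusted p = 0.691) and its dimmer probe set by -0.15 ± 0.084. The difference of ITGAD was 0.03 with the mean of both probe sets and 0.10 with array weights. Leaving out shunt replicate 6 gave 0.30, and leaving out replicate 2 of either group or shunt replicate 7 gave 0.11. ITGA4, a chain of the VCAM1 receptor and a dim gene, was 4.91, 5.28 and 5.44 in control and 5.12, 5.34 and 5.41 in shunt, at 0.09 ± 0.072 (limma adjusted p = 0.573) and 0.04 without control replicate 2. ITGAE, which binds E-cadherin, was at -0.03 ± 0.077. The class median of differences was -0.07, while the median over lambs of the class score was -0.04 in control and -0.0038 in shunt, which has the opposite sign.

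Leukocyte markers gave values for the cell types that carry these integrins. Among T cell markers 5 of 8 were below 0 (55.1% of all genes). LCK, a dim gene, was at -0.20 ± 0.071, the 1 with an unadjusted p under 0.05 (7.92% of all genes lower). The mean level of the 8 ran from 7.47 to 7.60 in control and from 7.33 to 7.58 in shunt. B cell markers had 2 measured, both in the dimmest 25%, with CD79A at -0.18 ± 0.071 and MS4A1 at 0.05. Their mean ran from 6.52 to 6.93 in control and from 6.52 to 6.79 in shunt. All 7 measured neutrophil markers were below 0 (55.1% of all genes), 3 with an unadjusted p under 0.05 (7.92% of all genes lower). Of the 7, 4 are in the dimmest 25%, among them ELANE at -0.24 and MPO at -0.17. Control replicate 2 was the highest control for both. The mean of the 7 ran from 6.42 to 7.16 in control and from 6.51 to 6.85 in shunt. Macrophage markers had 5 of 7 below 0 (55.1% of all genes), among them C1QB at -0.21 and C1QA at -0.17, while CD14 was at 0.42 ± 0.15. Their mean ran from 8.35 to 8.86 in control and from 8.46 to 8.96 in shunt. The part of these leukocyte markers in the leukocyte integrin values was not tested.

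Pairs of genes were compared across the 16 lambs with the group mean subtracted, 5 pairs in all. ITGAL and ITGB2, the chains of LFA-1, had Pearson's r = 0.72 (permutation p = 0.00293, adjusted p = 0.0146 over the 5 pairs) but Spearman's rho = 0.34 (permutation p = 0.204, adjusted p = 0.208). Within groups r was 0.80 in control and 0.46 in shunt (n = 8 each). Without control replicate 2 alone r was 0.62. Without both lambs farthest from the median, control replicates 2 and 7, r was 0.13, so the relation over all 16 lambs rests on those lambs, while the shunt value holds neither of them.

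E-cadherin and CLDN7, a claudin of the same cells, had r = 0.47 (permutation p = 0.0685, adjusted p = 0.171) and rho = 0.42 (permutation p = 0.103), with 0.18 in control and 0.63 in shunt. Without the 2 farthest lambs r was 0.47. E-cadherin and CLDN18 had r = 0.31 (permutation p = 0.236) and rho = 0.33 (permutation p = 0.208), and 0.22 without the 2 farthest lambs. ITGA4 and ITGB7, which form 1 receptor, had r = -0.29 (permutation p = 0.283) and rho = -0.34 (permutation p = 0.195), and -0.16 without the 2 farthest. ITGAV and ITGB6, given above, had rho = 0.38 (permutation p = 0.149) and r = 0.25 without the 2 farthest. After adjustment over the 5 pairs, these 4 pairs had p from 0.171 to 0.381 by Pearson and 0.208 by Spearman.

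**Figure D4:**
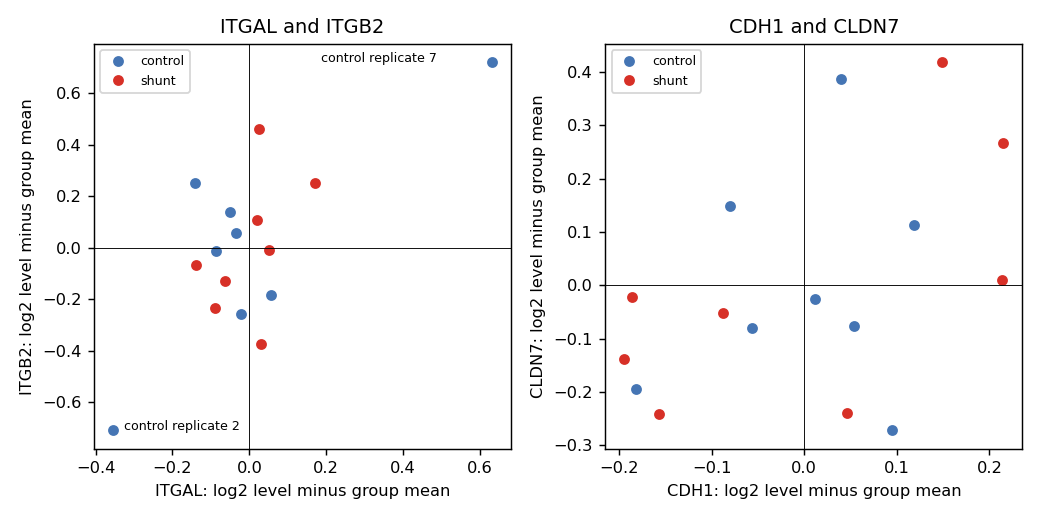
Log2 level minus the group mean of ITGAL against ITGB2 (left) and of CDH1 against CLDN7 (right), 1 point a lamb. On the left control replicates 2 and 7 lie at the opposite ends, and without them r is 0.13.

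Genes of vessels and platelets made a class of 4. PCDH12, a protocadherin of endothelium, was 7.41, 8.01 and 8.21 in control and 7.55, 7.79 and 8.18 in shunt. It differed by -0.13 ± 0.10 (limma adjusted p = 0.558), by -0.21 without control replicate 2 and by -0.22 with array weights. Its dimmer probe set differed by -0.20 ± 0.067 (adjusted p = 0.235 over probe sets), with shunt lambs from 6.78 to 7.14 and controls from 7.03 to 7.40. CDH13, or T-cadherin, was 9.47, 9.78 and 9.90 in control and 9.31, 9.79 and 10.08 in shunt, with a difference of 0.02 ± 0.10 (limma adjusted p = 0.933). ITGA2B, the platelet partner of ITGB3, was 4.86, 5.01 and 5.07 in control and 4.75, 4.93 and 5.04 in shunt, a dim gene with a difference of -0.07 ± 0.048 (limma adjusted p = 0.486), or -0.05 without shunt replicate 4.

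Endothelial markers were beside these, with 6 of 9 above 0 (44.9% of all genes), 3 of them at an unadjusted p under 0.05 (6.63% of all genes). Their mean level ran from 8.84 to 9.05 in control and from 8.89 to 9.13 in shunt. PECAM1, an endothelial adhesion molecule, was at 0.28 ± 0.054 (limma adjusted p = 0.0559) and TEK at 0.20 ± 0.068. The endothelial cadherin CDH5 was at 0.02 ± 0.079 and the endothelial claudin CLDN5 at -0.11 ± 0.071. The leukocyte integrin ITGAM, also left out of the 51, was at -0.10 ± 0.055. The part of endothelial markers in the values of PCDH12 and ITGB3 was not tested.

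The other class holds 13 genes, among them ITGAV, ITGB1, ITGB5 and the 4 that share only a prefix. Of the 13, 9 were above 0 (44.9% of all genes), with a median of 0.05. CLDN12 was 4.86, 4.94 and 5.24 in control and 4.85, 5.09 and 5.22 in shunt, and differed by 0.09 ± 0.061 (limma adjusted p = 0.513), or 0.06 with array weights. CDHR1, a photoreceptor cadherin, was 5.51, 5.82 and 5.90 in control and 5.44, 5.72 and 5.84 in shunt, and differed by -0.10 ± 0.068 (limma adjusted p = 0.492), or -0.07 without shunt replicate 1. Both were dim. CLDND1 was 10.16, 10.39 and 10.56 in control and 10.23, 10.48 and 10.80 in shunt, and differed by 0.10 ± 0.078 (limma adjusted p = 0.588). This was 0.05 without shunt replicate 6, 0.06 without control replicate 7, and 0.06 after quantile normalization again or cyclic loess. CLDN11 was at 0.12 ± 0.17, CDH8 at 0.08, CDH23 at 0.00048 and PCDH10 at -0.05. ITGB1BP1, ITGB1BP2 and ITGB3BP were at 0.05, -0.04 and -0.02.

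On the inner side of integrins, 20 of 29 listed adaptors were measured. An unadjusted p under 0.05 was found for 3 with a higher level (6.63% of all genes) and 2 with a lower one (7.92%). The median was 0.01, and no adaptor passed the adjusted threshold by limma. FYN, a kinase activated by integrins, was at 0.20 ± 0.060 (adjusted p = 0.201), the actin crosslinker ACTN1 at 0.18 ± 0.069, RSU1 at 0.15 ± 0.062 and the talin TLN2, a dim gene, at -0.13 ± 0.058. Of 24 listed ligands 17 were measured, with a median of 0.02. In each direction 2 had an unadjusted p under 0.05 (6.63% of all genes higher and 7.92% lower). COL4A1, a basement membrane collagen, was at 0.22 ± 0.052 and LAMB3, a laminin chain under epithelium, at -0.31 ± 0.069, both with an adjusted p = 0.104. FBN1, a microfibril protein with an RGD site, was at 0.22 ± 0.088, and MADCAM1, a ligand of gut-homing integrins, at -0.16 ± 0.058.

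Probe sets of a gene could be compared for 22 of the 51 genes, which had 27 further probe sets. Of these 27, 15 had the opposite sign of the brightest one, in 11 genes. Among the 12 genes with an unadjusted p under 0.05, ITGAV, CDH1 and CLDN16 had a further probe set of the same sign only, ITGA5 and ITGA7 had only the opposite sign, and ITGB3 had both. Counting all 78 probe sets of the 51 genes, an unadjusted p under 0.05 was reached by 9 with a higher level (6.42% of all probe sets) and 10 with a lower level (7.32%). By limma over probe sets 0 passed an adjusted p of 0.05 (0.0708% of all probe sets).

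**Figure D5:**
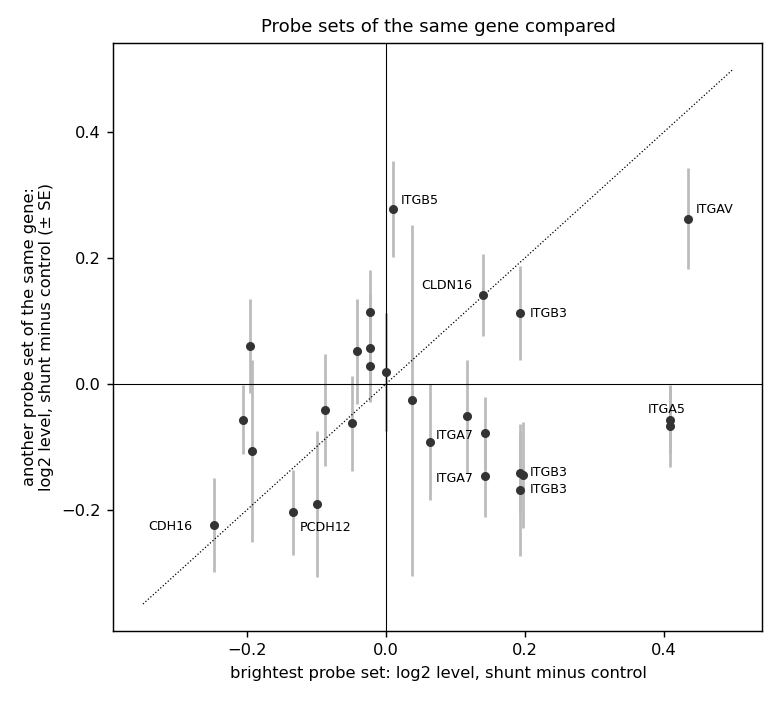
Difference in log2 level (shunt minus control) of the brightest probe set of a gene (horizontal axis) against that of each further probe set of the same gene (vertical axis, ± SE), with a dotted line of equality. CLDN16 and CDH16 lie near the line, ITGAV below it, ITGB5 far above it, and ITGA5, ITGA7 and part of ITGB3 on the other side of 0.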

How the data were processed

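The deposited table holds log2 values for every probe set on every array. RMA produced them, as the submitters' processing notes state (version not given in the sources used here). RMA subtracts background, normalizes arrays by quantiles and summarizes probes. Of 24128 probe sets, 112 manufacturer's controls were left out. The platform annotation gave 1 symbol for 13292 of the remaining 24016, several for 86 and none for 10638, and 50 of the 51 symbols studied are in the sheep gene table. The fit used lmFit and eBayes of limma 3.58.1 under R 4.3.3 (two-sided, no covariate), with p adjusted over all 9155 genes. The genes, classes and lists were chosen with earlier results of these data known. Values were given in full for the 5 genes of smallest p in each class, and differences for up to 4 in each partner list. Differences were also given for some markers of each list, not only those of smallest p. Lambs were not treated as paired. Deviations of same-numbered lambs from their group means correlated from -0.27 to 0.19, which cannot exclude a pairing by design. On simulated data with 9155 genes, the fit recovered 32 of 67 genes with a change of 0.3, 62 of 67 with 0.6 and 63 of 66 with 1. There 11 unchanged genes were called. The simulated noise was normal and independent between genes, and far more genes were changed than the 8 called in the data. That makes the adjusted threshold easier to pass, so these shares can overstate what the fit would find among the 51 genes. No source used here states how lambs were assigned, and p-values measure the spread between these arrays, whose number limits the precision. Alternatives were a replicate block, a filter on the dimmest 25% of genes, other normalizations, centring, weights, prior, probe set rules, a threshold of 0.10, stricter classes and each array left out. Plots used matplotlib 3.10.9.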

Additional observations from a re-analysis of the deposited data

Results flagged for a closer look

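A single lamb lay far from its group of 8 in 17 of 112 sets of values (51 genes and 5 class medians in both groups). This was judged by the ratio of its distance from the nearest lamb to the whole spread. Chance gives about 5.6 such sets if values are normal within a group. The class medians come from the same genes, and no such count over all genes is given here. In 8 of the 17 the lamb was control replicate 2, which also had the lowest mean correlation with the other arrays.

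Control replicate 2 was lowest for CDH2 (7.09 against 8.18 to 8.90, ratio 0.599), ITGB1BP1 (7.41, ratio 0.613), PCDH12 (7.41 against 7.93 to 8.21, ratio 0.648) and the leukocyte class median (-0.34 against -0.05 to 0.12, ratio 0.630). It was highest for CLDN19 (6.51, ratio 0.591), CLDN2 (6.06 against 4.97 to 5.39, ratio 0.613), ITGBL1 (7.66 against 5.70 to 6.16, ratio 0.764) and the epithelial class median (0.22 against -0.11 to 0.04, ratio 0.535).

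Other control lambs apart were replicate 8 with the lowest CDH23 (7.04, ratio 0.549), the highest CLDN12 (5.24, ratio 0.586) and the highest mesenchymal class median (0.18, ratio 0.559), and replicate 7 with the highest ITGAL (9.28 against 8.29 to 8.70, ratio 0.583). Among shunt lambs, replicate 1 was highest for CDH2 (9.05 against 8.37 to 8.55, ratio 0.741), replicate 7 lowest for CDHR2 (5.97, ratio 0.614), replicate 2 highest for CDHR5 (7.66 against 7.41 to 7.51, ratio 0.612), replicate 5 lowest for CLDN18 (8.26 against 8.57 to 8.75, ratio 0.634) and replicate 8 lowest for ITGB1BP1 (7.64, ratio 0.594).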

How the results depend on the processing

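The count of all genes called was 8 by limma and 0 with the replicate block (whether the numbers pair lambs is unknown). It was 5 after quantile normalization again or cyclic loess and 23 with array weights. At an adjusted p of 0.10 it was 26, and with 1 array left out it was 2 to 64. With the replicate block 4 of the 51 genes had an unadjusted p under 0.05 with a higher level and 5 with a lower one. Over all 9155 genes the block gave 540 and 611, against 607 and 725 without it. Called among the 51 were 0 in every other setting and 0 to 1 with 1 array left out. The 1 was ITGAV without shunt replicate 1, the fit with 64 called over all genes. Those higher at an unadjusted p under 0.05 numbered 3 to 6 with 1 array left out (464 to 700 over all genes). Those lower numbered 3 after centring (448 over all genes) and 3 to 7 with 1 array left out (567 to 891 over all genes). With the mean of probe sets 8 were lower (802 over all genes) and 4 higher (566 over all genes). The mesenchymal median of 0.09 moved to 0.17 with array weights and 0.0045 with the most variable probe set. The epithelial median stayed between -0.15 and -0.08 and the leukocyte median between -0.12 and -0.02 over all settings. Signs were followed gene by gene only for the 24 genes with values given in full. Among these, signs turned for CDH11 (-0.0039 under cyclic loess, -0.026 with the most variable probe set, -0.046 to 0.12 with 1 array left out). They turned for CDH13 (-0.0026 under cyclic loess, -0.010 after quantile normalization again, -0.022 to 0.088 with 1 array left out). They also turned for CDH2 (-0.049 with array weights, -0.046 to 0.21 with 1 array left out). With the mean of probe sets and with the most variable, they turned for ITGA7 (-0.028 and -0.15) and ITGB3 (-0.00076 and -0.17). Of the 22 epithelial genes, 19 were below 0 and 17 to 20 in other settings, so genes outside the 24 turned as well. The cause was not tested. Signal over background is unknown, and 15 of the 51 genes were in the dimmest 25%, so small differences there do not show that a gene was unchanged.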
